A study of Drosophila melanogaster with 9 samples.

Results

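Cells marked by a slouch muscle reporter were compared with cells marked by a twist-actin reporter, across all 16377 probe sets of Affymetrix Drosophila expression arrays. The comparison used 6 of the 9 arrays of the series, chosen by their titles: 3 arrays of slou_RFP cells (titled S59RFP) and 3 arrays of twi_actin_GFP cells (titled twi-actin-GFP). The slou_RFP cells carried the transgene slouch-RFP, in which a muscle enhancer of slouch (slou, also called S59) drives red fluorescent protein. The twi_actin_GFP cells carried twist_actin-GFP, an actin-GFP fusion under the promoter of twist (twi). Both kinds of cell came from dissociated whole embryos of stage 13, from a 2 h egg lay aged 8 h at 25 °C, and were collected by fluorescence sorting. The sorted cells were 87% pure on resorting for slou_RFP and 95% pure for twi_actin_GFP, per the series' design text. The remaining 3 arrays, ap_GFP, sorted through a muscle enhancer of apterous, entered the fit only for the estimate of spread. Per the series' design text, each array had a sort, labelling and hybridization of its own. Both groups differed in promoter, in fluorescent protein and in the sort gate, so these cannot be told apart from the cell populations themselves.

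As background, slouch encodes a homeodomain factor that marks a subset of muscle founder cells, the myoblasts that give each body wall muscle its identity. Founder cells recruit fusion-competent myoblasts, and the fused cells then build contractile fibres, glutamate receptors and attachments to tendon cells. twist encodes the bHLH factor that starts mesoderm formation in the early embryo. The mesoderm of the early embryo gives rise to body wall muscle, gut muscle, heart, fat body and blood cells.

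The arrays had like medians, from 4.47 to 4.61 on the log2 scale, but the slou_RFP arrays were not equally close to each other. Replicates 1 and 3 of slou_RFP were the closest pair of the series, with a correlation of 0.9983 and 0 probe sets more than 2-fold apart. Replicate 2 of slou_RFP correlated with them at 0.9702 and 0.9697, and 1454 and 1515 probe sets were more than 2-fold apart from it. The nearest array to slou_RFP replicate 2 was replicate 3 of ap_GFP, at 0.9863. Between twi_actin_GFP arrays 11 to 143 probe sets were more than 2-fold apart. The labels call all 3 slou_RFP arrays biological replicates. They were counted as 3. The series' design text gives each array a sort of its own. Whether replicates 1 and 3 came from separate sorts or repeat 1 sort cannot be told from the values. If they repeat 1 sort, n is 2 for slou_RFP and the p-values below are too small. List counts with replicates 1 and 3 averaged to 1 are given where a count above 3 moved by more than 1.5 times. Of 44 list counts of 1 to 3 genes, 32 moved by more than 1.5 times as single arrays were left out, so such small counts rest on single arrays. Larger counts were not all stable either, as 24 of 58 counts of 4 or more moved by that much. Genes given as higher or lower kept their call when any single array was left out, except where said.

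In a limma fit with Benjamini-Hochberg adjustment over all probe sets, 1826 probe sets (11.1%) were higher and 2120 (12.9%) lower in slou_RFP than in twi_actin_GFP at an adjusted p below 0.05. At the submitters' threshold, 1.7-fold with an unadjusted p, 564 (3.44%) were higher and 1559 (9.52%) lower. With 1 probe set for each of 10563 named genes, 1195 genes (11.3%) were higher and 1824 (17.3%) lower, and the median difference over all genes was 0.08 on the log2 scale. These shares are the background for every list below. The arrays of both groups did not overlap, in either direction, for 47.2% of probe sets and 48.9% of genes, so a lack of overlap alone marks no gene out. The falls were larger than the rises: 373 genes fell by at least 4-fold and 56 rose by as much, and 28 fell but only 1 rose by at least 16-fold. With slou_RFP replicates 1 and 3 counted as 1, 1260 probe sets were higher and 1818 lower. Without slou_RFP replicate 2, 2609 were higher and 2359 lower. The higher count fell below the main one by more than 1.5 times without slou_RFP replicate 1 (1128), twi_actin_GFP replicate 2 (960) or twi_actin_GFP replicate 3 (901). In a bulk sample, fewer cells of a type and less RNA per cell cannot be told apart.

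**Figure D1:**
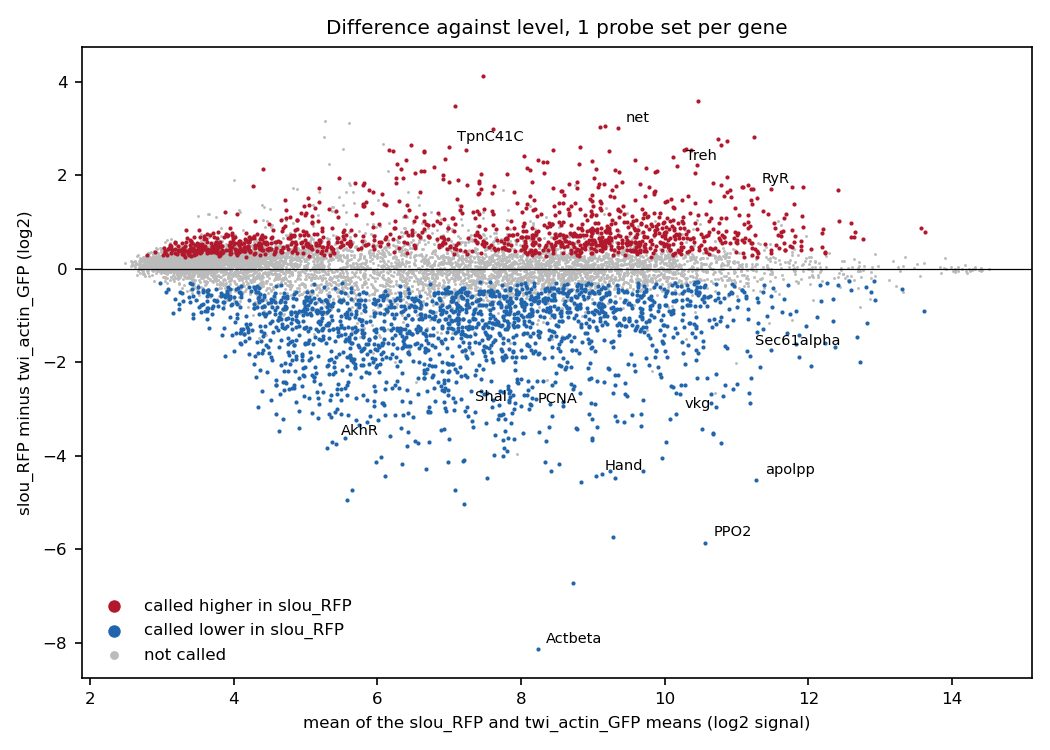
Each point is 1 of 10563 genes, with its difference between the slou_RFP and twi_actin_GFP means on the vertical axis (log2) and the mean of both means on the horizontal axis (log2 signal). Red and blue points passed an adjusted p of 0.05 in limma, and the blue points reach farther from 0 than the red ones, with Actbeta lowest at -8.14.

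RMA values carry no call of presence, so 150 odorant, gustatory and ionotropic receptor genes, whose products act in sense organs, were used to mark the dim end of the scale. A group mean was called dim at or below the 90th percentile of these genes' means, 4.11 in slou_RFP and 3.9 in twi_actin_GFP. Of the 1824 lower genes 254 were dim in slou_RFP, so their fold change is likely to be understated. Of the 1195 higher genes 201 were dim in twi_actin_GFP and 149 were dim in both groups. Among the receptor genes themselves 139 of 150 had a positive difference, with a median of 0.18, where 6129 of all 10563 genes had one. Of the 150, 12 were called higher and 0 lower, and a share this small is no result about these genes. The higher count was 2, 4 or 5 without twi_actin_GFP replicate 3, 2 or 1, 3 without slou_RFP replicate 1, 6 without ap_GFP replicate 2 and 5 with slou_RFP replicates 1 and 3 counted as 1. Small rises of dim genes are not described as expression here.

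The reporter genes came first as a check of the labels. slou read 10.73, 9.97 and 10.77 in slou_RFP cells, against 7.39, 8.20 and 8.33 in twi_actin_GFP cells, a 5.74-fold difference (log2 2.52 ± 0.29 SE, adjusted p = 0.00034). All 3 slou_RFP arrays lay above all 3 twi_actin_GFP arrays. Against ap_GFP cells slou was not called, as no probe set passed there (smallest adjusted p 0.599 in limma). This check thus sets slou_RFP apart from twi_actin_GFP cells but not from ap_GFP cells. twi itself read 9.29, 9.63 and 9.29 in slou_RFP cells and 7.19, 6.99 and 7.03 in twi_actin_GFP cells, 5.04-fold higher in slou_RFP. The cells sorted through the twist promoter thus held less twi transcript than the cells sorted through the slouch enhancer, with no overlap of the arrays. For ap, the gene behind the ap_GFP reporter, the slou_RFP mean lay above the twi_actin_GFP mean by 1.65 on the log2 scale. The label gives somatic mesoderm for every array, whereas some markers of blood, fat body, gut and heart, described below, were higher in twi_actin_GFP cells.

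Of 20 measured genes of calcium handling and excitation, 7 were higher in slou_RFP cells and 3 lower, with a median of 0.27. RyR, the calcium release channel of the sarcoplasmic reticulum, read 12.11, 12.0 and 12.12 in slou_RFP cells and 10.52, 10.47 and 10.16 in twi_actin_GFP cells. SERCA, the pump that returns calcium to that store, read 11.92, 12.1 and 11.92 in slou_RFP cells and 11.23, 11.13 and 10.94 in twi_actin_GFP cells. Neither gene's arrays overlapped between the groups. RyR was 3.24-fold higher (log2 1.70 ± 0.11 SE, adjusted p = 1.5e-05) and SERCA 1.84-fold higher (log2 0.88 ± 0.10 SE, adjusted p = 0.000362). Potassium channel genes moved in both directions. Sh (Shaker, a fast voltage-gated channel) read 8.15, 8.10 and 8.21 in slou_RFP cells against 6.40, 6.44 and 6.25 in twi_actin_GFP cells, 3.46-fold higher (adjusted p = 0.000137). Shal, which carries another fast potassium current, read 5.75, 5.89 and 5.66 in slou_RFP cells against 8.57, 8.85 and 8.77 in twi_actin_GFP cells, 7.81-fold lower (log2 -2.96 ± 0.11 SE, adjusted p = 1.75e-06). Each group was tight for both genes and far from the other group. Shaw and slo, also potassium channels, fell by 1.13 and 0.95 on the log2 scale. The higher count of the list was 4 without twi_actin_GFP replicate 3.

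Subunits of the muscle glutamate receptor, which receives the motor neuron's transmitter, rose in part. GluRIIB read 10.34, 9.37 and 10.28 in slou_RFP cells and 7.99, 8.33 and 8.22 in twi_actin_GFP cells. GluRIIE read 7.98, 8.61 and 8.0 in slou_RFP cells and 6.8, 7.21 and 7.04 in twi_actin_GFP cells. The slou_RFP arrays were above the twi_actin_GFP arrays for both, with replicate 2 the lowest slou_RFP array for GluRIIB and the highest for GluRIIE. GluRIIB was 3.52-fold higher (adjusted p = 0.000774), GluRIIE 2.27-fold (adjusted p = 0.00273) and GluRIID, a further subunit, 1.91-fold (adjusted p = 0.00671). GluRIIA, which competes with GluRIIB for a place in the receptor, differed by 0.11 (95% interval -0.24 to 0.46) and its arrays overlapped. Of 15 measured genes of the neuromuscular receptor and postsynapse list, 7 were higher and 0 lower, with a median of 0.21. The higher count was 4 without slou_RFP replicate 1, without twi_actin_GFP replicate 3, or with slou_RFP replicates 1 and 3 counted as 1.

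Sarcomere genes did not move as a block. TpnC41C, a calcium-binding troponin C, read 8.15, 8.49 and 8.26 in slou_RFP cells against 6.0, 5.63 and 5.48 in twi_actin_GFP cells, 6.04-fold higher (adjusted p = 4.81e-05). Act87E, a muscle actin, read 12.34, 11.45 and 12.33 in slou_RFP cells against 10.67, 10.48 and 10.44 in twi_actin_GFP cells, 2.85-fold higher (adjusted p = 0.00197). Neither gene's groups overlapped. sls, which encodes the titin-like Sallimus, and Strn-Mlck, a myosin light chain kinase, were 1.96-fold and 1.97-fold higher. Mlc1, the alkali light chain of muscle myosin, read 12.64, 12.94 and 12.62 in slou_RFP cells and 12.54, 12.77 and 12.71 in twi_actin_GFP cells. Its groups overlapped and the difference was 0.06 (95% interval -0.24 to 0.37). Over the list, 6 of 23 measured genes were higher and 1, the nonmuscle light chain Mlc-c, lower, with a median of 0.05. This list depended on slou_RFP replicate 2: the median deviation of its genes from their 9-array means was -0.18 and -0.17 in slou_RFP replicates 1 and 3 but 0.41 in replicate 2. Without replicate 2, 6 were higher and 8 lower, and the lower count was 3 without ap_GFP replicate 3 and 2 without twi_actin_GFP replicate 1.

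Of 22 measured genes of RNA binding and splicing, 6 were higher and 2 lower, with a median of 0.06. Rbfox1, a splicing regulator of muscle and neurons, read 12.32, 11.33 and 12.27 in slou_RFP cells against 10.5, 10.05 and 10.12 in twi_actin_GFP cells, 3.36-fold higher (log2 1.75 ± 0.26 SE, adjusted p = 0.0015). mbl (muscleblind, another splicing regulator) read 8.68, 8.4 and 8.85 in slou_RFP cells against 7.55, 7.05 and 7.1 in twi_actin_GFP cells, 2.66-fold higher (adjusted p = 0.000396). All slou_RFP arrays were above all twi_actin_GFP arrays for both, and replicate 2 was the lowest slou_RFP array. The higher count of the list ran from 3 to 10 as single arrays were left out, 3 without slou_RFP replicate 1, slou_RFP replicate 3 or twi_actin_GFP replicate 2 and 10 without slou_RFP replicate 2. It was also 3 with slou_RFP replicates 1 and 3 counted as 1. One of its 2 falls was dsx (doublesex), a sex determination factor, which was dim in slou_RFP cells at 3.06, 3.25 and 2.94 and read 5.33, 5.69 and 6.1 in twi_actin_GFP cells. Of 19 genes of microtubule motors and nuclear positioning 5 were higher and 4 lower, with a median of 0.11, and the lower count was 2 without twi_actin_GFP replicate 3. alphaTub85E, a tubulin isoform, was 3.36-fold higher (adjusted p = 0.00263), and Msp300, a nesprin that anchors muscle nuclei, 1.77-fold higher (adjusted p = 0.00242). Lower were betaTub97EF, another tubulin, by a log2 difference of -0.77, and shot (short stop), which links actin to microtubules, by -0.71.

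**Figure D2:**
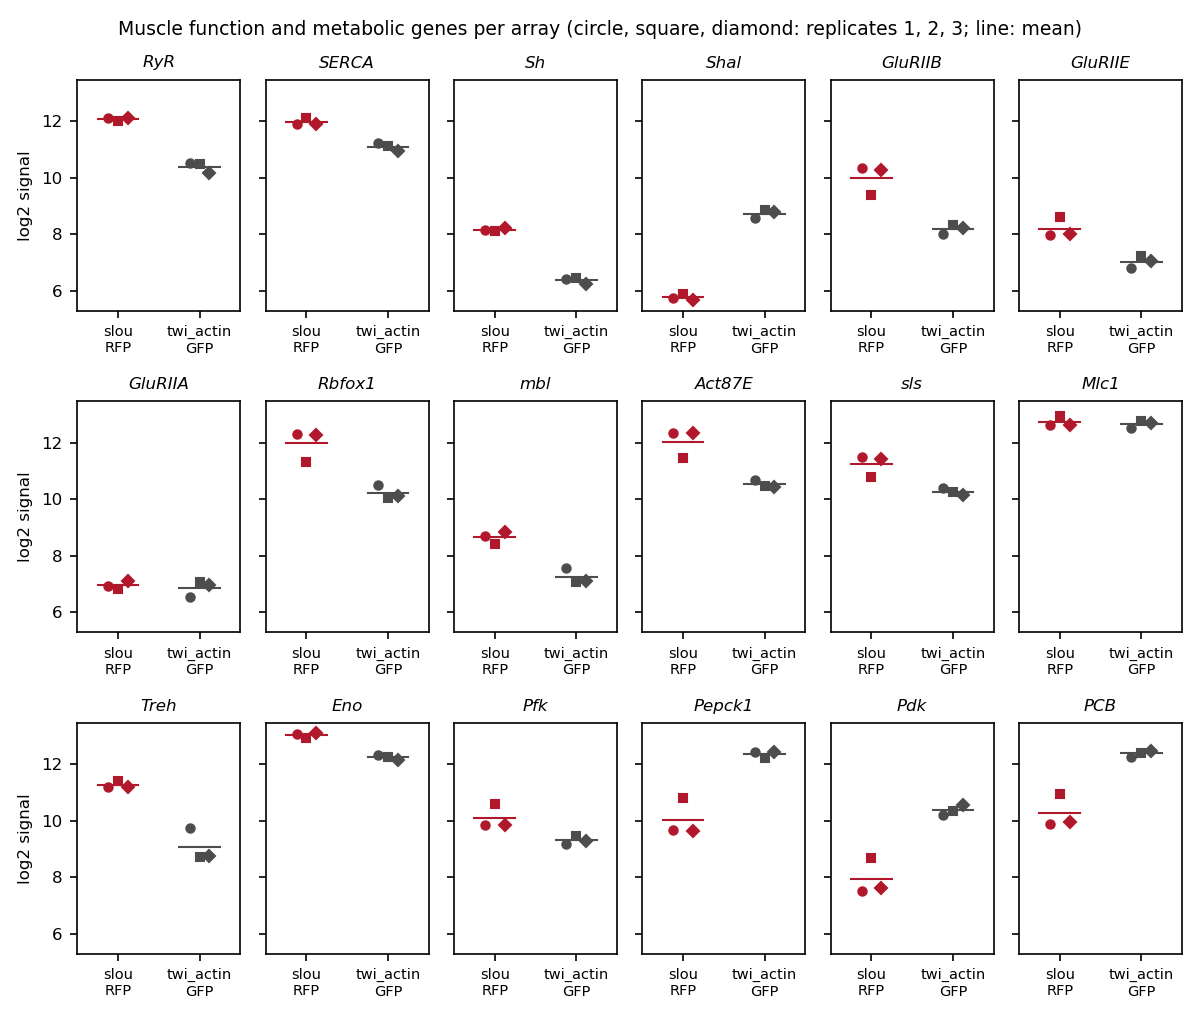
Log2 signal of 18 genes on each array, slou_RFP in red on the left and twi_actin_GFP in grey on the right of each panel, with a symbol per replicate and a line at the mean. RyR, SERCA, Sh and Treh lie higher in slou_RFP, Shal, Pepck1, Pdk and PCB lie lower, and GluRIIA and Mlc1 overlap.

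Of 17 measured genes of the glycolysis and lactate list 6 were higher, 2 lower and 9 not called, with a median of 0.39. Treh, which splits the blood sugar trehalose, read 11.21, 11.41 and 11.19 in slou_RFP cells and 9.74, 8.73 and 8.76 in twi_actin_GFP cells, 4.58-fold higher (log2 2.20 ± 0.24 SE, adjusted p = 0.000268). Eno (enolase, of glycolysis) read 13.08, 12.94 and 13.09 in slou_RFP cells and 12.34, 12.26 and 12.15 in twi_actin_GFP cells, 1.73-fold higher (adjusted p = 0.000264). Both genes' groups were fully apart. Gpdh1, which links glycolysis to the glycerol phosphate shuttle, and Argk1, the arginine kinase that buffers ATP in muscle, were 2.44-fold and 1.72-fold higher. Pfk, the gatekeeper of glycolysis, was 1.73-fold higher, and its call was lost without any 1 of the twi_actin_GFP arrays. In the other direction, Pepck1, which makes phosphoenolpyruvate for sugar synthesis, read 9.66, 10.79 and 9.64 in slou_RFP cells and 12.44, 12.21 and 12.44 in twi_actin_GFP cells. Pdk, the kinase that shuts pyruvate dehydrogenase, read 7.52, 8.68 and 7.63 in slou_RFP cells and 10.21, 10.36 and 10.56 in twi_actin_GFP cells. slou_RFP replicate 2 stood nearest to the twi_actin_GFP arrays for both without reaching them. Pepck1 was 5.05-fold lower (adjusted p = 0.000462), Pdk 5.39-fold lower (adjusted p = 0.00204) and PCB, pyruvate carboxylase, 4.31-fold lower (adjusted p = 0.00258). Pepck1 and Pdk were the 2 lower members of the list. Of 13 citric acid cycle genes 0 were higher and 4 lower, with a median of -0.43. The lower count was 2 without slou_RFP replicate 3, twi_actin_GFP replicate 2 or twi_actin_GFP replicate 3, and also with slou_RFP replicates 1 and 3 counted as 1. It was 6 without slou_RFP replicate 2.

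Muscle identity factors were mixed, with 6 of 23 higher and 7 lower and a median of 0.03. The rise of slou, itself such a factor, was built into the sort and is no result about this list. Higher were tx (taxi, also called delilah, a bHLH factor of tendon cells and some muscles), 4.17-fold (adjusted p = 1.5e-05), and Poxm (Pox meso, a paired-box factor of ventral muscles), 1.95-fold (adjusted p = 0.000449). tx read 10.43, 10.25 and 10.49 in slou_RFP cells against 8.51, 8.2 and 8.28 in twi_actin_GFP cells. Lowest of the list was tey (teyrha-meyrha), a regulator of muscle targeting, at 5.31, 4.98 and 5.25 in slou_RFP cells against 8.22, 8.26 and 8.21 in twi_actin_GFP cells. Lim3, a LIM-homeodomain factor, read 4.62, 5.13 and 5.01 in slou_RFP cells against 7.29, 8.08 and 7.9 in twi_actin_GFP cells. Neither gene's groups overlapped, and tey was 8.29-fold (adjusted p = 2.23e-05) and Lim3 7.15-fold lower (adjusted p = 6.73e-05). tup (tailup, a LIM-homeodomain factor of dorsal muscles and heart) was 3.84-fold lower (adjusted p = 1.72e-05), and eya, a cofactor of early myogenesis, 3.07-fold lower (adjusted p = 0.00279). nau, the fly MyoD relative, differed by 0.29 (95% interval -0.9 to 1.48), and its replicate 2 array in slou_RFP, at 7.01, lay below replicates 1 and 3 at 8.32 and 8.33.

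Patterning genes that also act outside muscle changed in both directions. gsb (gooseberry), a paired-box segmentation gene, read 7.68, 6.78 and 7.74 in slou_RFP cells against 5.0, 5.34 and 5.47 in twi_actin_GFP cells, 4.38-fold higher (adjusted p = 0.000362). Its neighbour gsb-n read 7.65, 6.57 and 7.75 in slou_RFP cells against 5.34, 5.37 and 5.47 in twi_actin_GFP cells, 3.81-fold higher (adjusted p = 0.00155). hb (hunchback), a zinc finger factor of the early axis and of neuroblasts, read 8.25, 7.69 and 8.41 in slou_RFP cells against 5.57, 5.69 and 6.05 in twi_actin_GFP cells, 5.09-fold higher (adjusted p = 0.000214). For all 3 genes the groups were apart and slou_RFP replicate 2 was the lowest of its group. odd (odd skipped), which also marks pericardial cells, was 7.72-fold lower (adjusted p = 5.66e-05). opa (odd paired), which acts in visceral mesoderm as well, was 5.41-fold lower (adjusted p = 0.000188). In all, 6 of 18 segmentation, Wnt and Hedgehog genes were higher and 4 lower, and the lower count was 2 without slou_RFP replicate 1, twi_actin_GFP replicates 2 or 3, or ap_GFP replicates 1 or 2.

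Ligand genes moved in both directions. Actbeta, an activin ligand, read 3.88, 4.66 and 3.95 in slou_RFP cells against 12.54, 12.18 and 12.19 in twi_actin_GFP cells, the largest difference over the 10563 genes (282-fold lower, log2 -8.14 ± 0.23 SE, adjusted p = 4.06e-07). Its mean in slou_RFP cells was near the dim limit. dpp, the main BMP ligand, read 6.76, 5.05 and 6.86 in slou_RFP cells against 8.38, 8.54 and 8.59 in twi_actin_GFP cells, 4.84-fold lower (adjusted p = 0.00842). daw, another activin-like ligand, was 3-fold lower (adjusted p = 0.00938). The receptors put and sax were 1.45-fold and 1.34-fold higher, whereas the receptor tkv differed by -0.57 on the log2 scale and was not called. mav, a TGF-beta ligand, was 1.74-fold higher. tld (tolloid), a protease that frees BMP ligands, read 6.58, 6.92 and 6.7 in slou_RFP cells against 5.36, 4.64 and 4.73 in twi_actin_GFP cells, 3.54-fold higher (adjusted p = 0.000208). Of 19 genes of both pathways 6 were higher and 3 lower. Receptor tyrosine kinase genes were split as well. Egfr, the epidermal growth factor receptor, read 5.31, 5.09 and 5.56 in slou_RFP cells against 7.33, 7.21 and 7.35 in twi_actin_GFP cells, 3.94-fold lower (adjusted p = 1.3e-05). Pvr, a receptor that guides blood cells, was 3.41-fold lower, and aop (yan), a repressor that the pathway inactivates, 2.20-fold higher (adjusted p = 0.00113). The list had 5 of 20 higher and 5 lower.

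Notch pathway genes and targets had the largest share of rises among the lists, 10 of 17, with 2 lower and a median of 0.91. E(spl)mdelta-HLH, a repressor induced by Notch, read 9.55, 8.48 and 9.55 in slou_RFP cells against 7.41, 6.67 and 7.13 in twi_actin_GFP cells, 4.35-fold higher (adjusted p = 0.00106). kuz, the protease that cleaves Notch, and neur, the ligase that activates its ligands, were 2-fold and 1.88-fold higher. numb, which blocks Notch, read 8.0, 7.84 and 8.15 in slou_RFP cells against 9.01, 9.14 and 9.23 in twi_actin_GFP cells, 2.19-fold lower (adjusted p = 0.00181). No array of one group reached into the other for any of these 4. The higher count ran from 8 to 12 as single arrays were left out, and it was 8 with slou_RFP replicates 1 and 3 counted as 1.

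**Figure D3:**
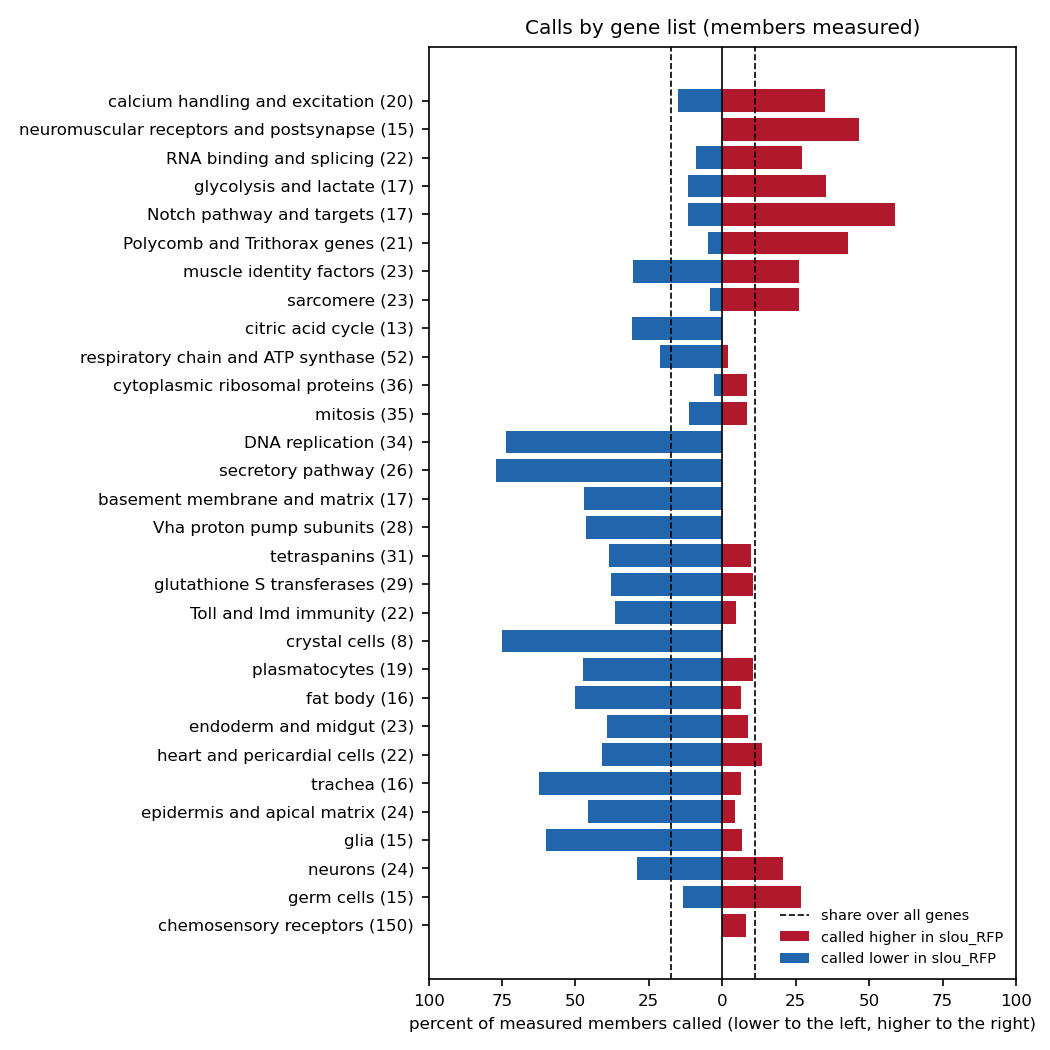
Percent of the measured members of 30 gene lists that were called higher (red, to the right) or lower (blue, to the left) in slou_RFP than in twi_actin_GFP, with the number measured in brackets and dashed lines at the shares over all genes, 11.3% and 17.3%. Secretory pathway and DNA replication genes reach farthest to the left among lists of more than 20 genes, and Notch genes farthest to the right.

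Of 26 measured genes for entry into the endoplasmic reticulum and for coated vesicles, 20 were lower and 0 higher, 0 had a positive difference, and the median was -1.05. Sec61alpha, the channel through which proteins enter the endoplasmic reticulum, read 10.17, 10.36 and 10.24 in slou_RFP cells against 12.03, 12.0 and 12.02 in twi_actin_GFP cells. Its partner subunit Sec61beta read 11.94, 11.99 and 11.91 in slou_RFP cells against 13.46, 13.32 and 13.44 in twi_actin_GFP cells. ERp60, a disulfide isomerase, read 10.91, 11.19 and 10.86 in slou_RFP cells against 13.29, 12.95 and 12.98 in twi_actin_GFP cells. Arrays of each group lay close to each other and far from the other group for all 3 genes. Sec61alpha was 3.38-fold lower (log2 -1.76 ± 0.08 SE, adjusted p = 4.26e-06), Sec61beta 2.75-fold (adjusted p = 1.35e-05) and ERp60 4.24-fold (adjusted p = 2.38e-05). Coat subunits of vesicles fell by less than these 3 genes, such as alphaCOP by 1.32 and Sec13 by 1.16 on the log2 scale. Other entry genes moved less than the coat subunits, such as Srp54k at -0.41 and Srp19 at -0.16, neither of them called. The chaperones of the endoplasmic reticulum were lower too: Hsc70-3 (BiP) was 2.98-fold lower (adjusted p = 2.03e-05) and Gp93 2.58-fold lower (adjusted p = 3.64e-05). crc (ATF4), a transcription factor of stress responses, was 1.87-fold higher (adjusted p = 0.00126). The lower count of the list stayed between 20 and 21 as single arrays were left out.

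Matrix cargo of this pathway was lower too, for part of the basement membrane. vkg and Col4a1, the paired chains of collagen IV, were 8.66-fold (adjusted p = 0.000713) and 7.72-fold lower (adjusted p = 0.00107). vkg read 8.45, 8.83 and 8.53 in slou_RFP cells against 12.41, 11.08 and 11.66 in twi_actin_GFP cells. Plod, a lysyl hydroxylase of collagen, fell by 1.89 and trol, the perlecan core protein, by 2.40 on the log2 scale. SPARC, a collagen-binding matrix protein, read 9.0, 10.33 and 8.95 in slou_RFP cells against 12.29, 11.22 and 11.79 in twi_actin_GFP cells, 5.05-fold lower (adjusted p = 0.003). The laminin chain LanB1 differed by -0.25 (95% interval -0.57 to 0.08), and its arrays overlapped. Over the list 8 of 17 were lower and 0 higher, with a median of -0.77. Of 28 Vha genes, which encode the proton pump that acidifies vesicles, 13 were lower and 0 higher. Vha16-1, a ring subunit, read 11.5, 11.83 and 11.5 in slou_RFP cells against 12.73, 12.54 and 12.66 in twi_actin_GFP cells, 2.05-fold lower (adjusted p = 0.000275).

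Markers of mesodermal descendants other than body wall muscle differed by list. Crystal cell genes had 6 of 8 lower and 0 higher, plasmatocyte genes 9 of 19 lower and 2 higher, and fat body genes 8 of 16 lower and 1 higher. Of the plasmatocyte genes 7 had a positive difference, and Hml was among the 2 rises, at 0.55 on the log2 scale. The higher plasmatocyte count was 1 without slou_RFP replicate 1 or 2, or without twi_actin_GFP replicate 2 or 3. Which of the 2 rises was then lost is not given here. Visceral mesoderm genes had 4 of 13 lower and 1 higher. Heart and pericardial genes had 9 of 22 lower and 3 higher, but 11 of 22 had a positive difference and the median was -0.03. The higher count of the heart list was 0 without twi_actin_GFP replicate 2 or 3 and 1 without slou_RFP replicate 2. PPO2, a prophenoloxidase of crystal cells, read 7.39, 8.21 and 7.29 in slou_RFP cells against 13.72, 13.27 and 13.48 in twi_actin_GFP cells, 58.1-fold lower (adjusted p = 1.35e-05). lz (lozenge), the factor that makes crystal cells, was dim in slou_RFP cells at 2.93, 2.75 and 2.88 and read 6.33, 5.12 and 6.03 in twi_actin_GFP cells. AkhR, the receptor of adipokinetic hormone in fat body, was also dim in slou_RFP cells, at 3.57, 3.41 and 3.61, against 7.23, 7.18 and 7.27 in twi_actin_GFP cells. All 3 genes had groups far apart. The lipid droplet protein Lsd-1 fell by 3.43, the lipoprotein gene apolpp by 4.53 and the lipid transfer gene Mtp by 2.65 on the log2 scale. Hand, a bHLH factor of heart and visceral muscle, read 6.54, 7.14 and 6.81 in slou_RFP cells against 11.18, 11.3 and 11.33 in twi_actin_GFP cells, 21.7-fold lower (adjusted p = 2.58e-06). prc (pericardin), a matrix protein around the heart, was 9.23-fold lower (adjusted p = 0.00012). One fat body list member, sug, a sugar-responsive transcription factor, was higher by 2.53 on the log2 scale (adjusted p = 4.13e-05), at 11.52, 11.58 and 11.53 in slou_RFP cells against 9.55, 8.73 and 8.75 in twi_actin_GFP cells.

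Markers of tissues that do not come from mesoderm also differed by list. In the midgut list 9 of 23 were lower and 2 higher, but 12 had a positive difference. Its falls included GATAe, a gut GATA factor, 12.5-fold lower (adjusted p = 0.000355) and mex1, a midgut surface gene, 19.9-fold lower (adjusted p = 0.00164). mex1 read 6.19, 8.57 and 6.49 in slou_RFP cells against 10.91, 11.77 and 11.52 in twi_actin_GFP cells. In the tracheal list 10 of 16 were lower and 1 higher, led by the chitin-binding gene Gasp at 6.75, 9.16 and 6.71 in slou_RFP cells against 11.86, 11.75 and 11.98 in twi_actin_GFP cells. For both genes slou_RFP replicate 2 lay more than 2 log2 units above the other slou_RFP arrays. In the epidermal list 11 of 24 were lower and 1 higher, with dy (dusky), an apical matrix protein, 17.6-fold lower (adjusted p = 0.000148). In the glial list 9 of 15 were lower and 1 higher, which was bnb (bangles and beads), 3.21-fold (adjusted p = 0.00087), at 13.53, 12.69 and 13.55 in slou_RFP cells against 11.7, 11.55 and 11.47 in twi_actin_GFP cells. The neuronal list had 5 of 24 higher and 7 lower. The higher count was 3 without slou_RFP replicate 1 or 3, without twi_actin_GFP replicate 2 or 3, or with slou_RFP replicates 1 and 3 counted as 1. CadN, the adhesion molecule N-cadherin, was 2.93-fold higher (adjusted p = 0.00074), and the synaptic vesicle gene Rab3 3.83-fold lower (adjusted p = 0.000693). The median differences were -3.73 for crystal cell, -1.16 for plasmatocyte, -0.74 for fat body, -0.37 for visceral mesoderm, -0.94 for tracheal, -0.79 for epidermal and -0.84 for glial genes. They were -0.03 for heart, 0.01 for midgut and 0.08 for neuronal genes, against 0.08 over all genes. By array, the median deviation from the 9-array mean ran from -0.47 to -0.19 in slou_RFP and from 0.17 to 1.04 in twi_actin_GFP for plasmatocyte genes. For crystal cell genes it ran from -1.34 to -1.09 in slou_RFP and from 1.87 to 2.87 in twi_actin_GFP. For fat body genes it ran from -0.41 to -0.28 in slou_RFP and from 0.35 to 0.50 in twi_actin_GFP. The groups did not overlap for any of the 3 lists. Over all genes the same medians ran from -0.01 to 0.01 in slou_RFP and from -0.05 to -0.03 in twi_actin_GFP. These did not overlap either, so a lack of overlap alone marks no list out. The cell type lists share some members with the secretory and matrix lists above (Col4a1, vkg and SPARC also mark plasmatocytes). The part of the cell type lists in the secretory and matrix differences was not tested.

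**Figure D4:**
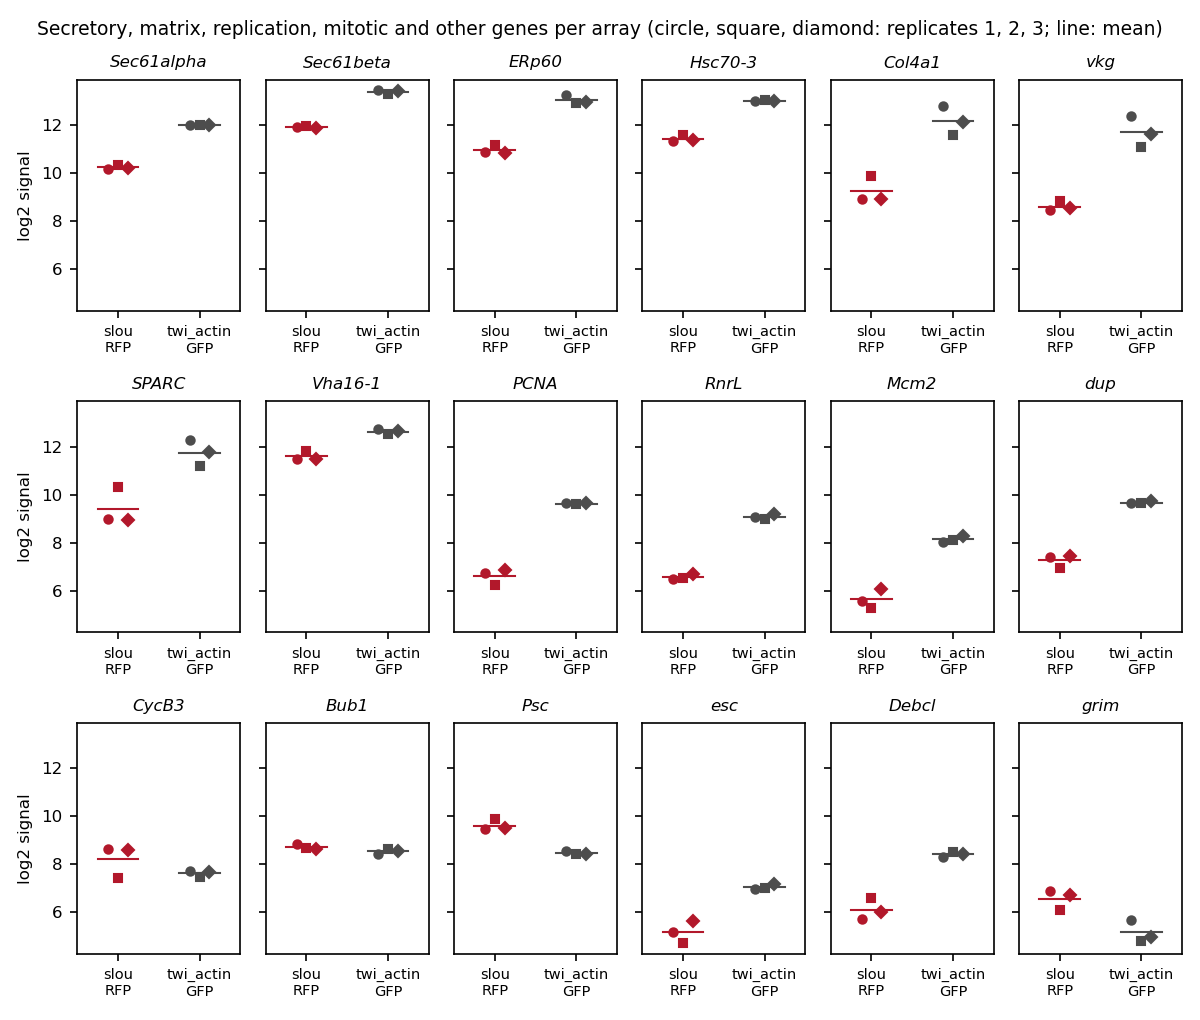
Log2 signal of 18 genes on each array, slou_RFP in red on the left and twi_actin_GFP in grey on the right of each panel, with a symbol per replicate and a line at the mean. Sec61alpha, ERp60, vkg, PCNA, RnrL and Mcm2 lie lower in slou_RFP with no overlap, CycB3 and Bub1 do not separate by group, and Psc and grim lie higher.

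Genes of DNA replication were lower, whereas most genes of mitosis were not called. Of 34 measured replication genes 25 were lower and 0 higher, with a median of -1.34. PCNA, the sliding clamp, read 6.75, 6.25 and 6.84 in slou_RFP cells against 9.64, 9.6 and 9.64 in twi_actin_GFP cells. RnrL, the large subunit of ribonucleotide reductase, read 6.47, 6.52 and 6.7 in slou_RFP cells against 9.07, 9.0 and 9.18 in twi_actin_GFP cells. dup (Cdt1), which loads the helicase, read 7.41, 6.93 and 7.43 in slou_RFP cells against 9.65, 9.65 and 9.73 in twi_actin_GFP cells. The groups of all 3 genes were over 2 log2 units apart. PCNA was 8.06-fold (adjusted p = 3e-05), RnrL 5.74-fold (adjusted p = 1.75e-06) and dup 5.35-fold lower (adjusted p = 1.32e-05). The helicase subunit Mcm2 was 5.68-fold lower and Cdc45, which activates the helicase, fell by 1.67 on the log2 scale. Of 35 mitosis genes 3 were higher and 4 lower, with a median of -0.03. CycB3, a mitotic cyclin, read 8.64, 7.44 and 8.6 in slou_RFP cells against 7.7, 7.48 and 7.67 in twi_actin_GFP cells, so that only replicates 1 and 3 stood above. Bub1, a checkpoint kinase, differed by 0.18 (95% interval -0.09 to 0.45). The replication count ran from 19 to 26 as single arrays were left out. The mitosis counts moved more. Without slou_RFP replicate 2, 8 were higher and 4 lower. Without any single twi_actin_GFP array 1 was higher, and the lower count was 2 without replicate 1 or 2 and 1 without replicate 3. Without slou_RFP replicate 1 the counts were 2 higher and 1 lower. The difference between the 2 lists was not tested.

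Chromatin and cell death genes moved by member. Psc, a subunit of a Polycomb repressive complex, read 9.47, 9.87 and 9.5 in slou_RFP cells against 8.53, 8.42 and 8.44 in twi_actin_GFP cells, 2.22-fold higher (adjusted p = 0.000643). esc, a subunit of the other Polycomb complex, which methylates histone H3, read 5.18, 4.7 and 5.63 in slou_RFP cells against 6.98, 7.01 and 7.19 in twi_actin_GFP cells, 3.71-fold lower (adjusted p = 0.000685). Neither overlapped. trx (trithorax), which opposes Polycomb, was higher by 0.69 on the log2 scale, while the catalytic subunit gene E(z) differed by -0.17 (95% interval -0.51 to 0.17). Of 21 such genes 9 were higher and 1 lower. In the cell death list, grim, which releases caspases from inhibition, read 6.87, 6.09 and 6.72 in slou_RFP cells against 5.68, 4.81 and 4.95 in twi_actin_GFP cells, 2.67-fold higher (adjusted p = 0.00472). skl (sickle), of the same family, was 1.78-fold higher (adjusted p = 0.00436). Both fly Bcl-2 family genes were lower. Debcl was 4.96-fold lower (adjusted p = 0.000132) and Buffy 2.33-fold lower (adjusted p = 0.000189), with Buffy dim in slou_RFP cells. The list had 2 of 10 higher and 3 lower, among the latter the caspase gene Dcp-1 at -0.48 on the log2 scale.

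Of 36 cytoplasmic ribosomal protein genes 3 were higher and 1 lower, with a median of -0.01, and RpS26 read 14.25, 14.22 and 14.25 in slou_RFP cells against 14.24, 14.25 and 14.23 in twi_actin_GFP cells. The higher ribosomal count was 0 without twi_actin_GFP replicate 2 or 3 and 1 without twi_actin_GFP replicate 1 or slou_RFP replicates 1 or 3. Of 34 proteasome genes 4 were lower and 0 higher. The lower count was 7 without slou_RFP replicate 2. It was 2 without slou_RFP replicates 1 or 3, without twi_actin_GFP replicates 2 or 3, and with slou_RFP replicates 1 and 3 counted as 1. Mitochondrial ribosomal proteins had 14 of 56 lower and 0 higher, with a median of -0.21. The lower count was 5 without twi_actin_GFP replicate 2 or 3, 6 without slou_RFP replicate 1, 9 without slou_RFP replicate 3 and 7 with both counted as 1. Subunits of the respiratory chain and ATP synthase had 11 of 52 lower and 1 higher, with a median of -0.14. The lower count was 1 without twi_actin_GFP replicate 2, 3 without slou_RFP replicate 1 or twi_actin_GFP replicate 3, 4 without slou_RFP replicate 3 and 4 with slou_RFP replicates 1 and 3 counted as 1.

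Of 29 glutathione S-transferase genes 11 were lower and 3 higher, with a median of -0.02. GstO3 read 4.89, 6.27 and 4.71 in slou_RFP cells against 9.35, 9.95 and 9.98 in twi_actin_GFP cells, 22.2-fold lower (adjusted p = 7.28e-05). GstD3 read 10.43, 10.2 and 10.46 in slou_RFP cells against 8.61, 7.91 and 8.22 in twi_actin_GFP cells, 4.33-fold higher (adjusted p = 4.26e-05). The 2 genes belong to different classes of the family and moved in opposite directions with no overlap. Of 70 cytochrome P450 genes 12 were lower and 1 higher, with a median of 0.09 and 45 positive differences, so the share of falls was near that over all genes. Among them Cyp28a5 was 12.9-fold lower (adjusted p = 7.95e-05). Of 31 tetraspanins, small membrane proteins, 12 were lower and 3 higher, with a median of -0.44 and Tsp29Fa 11.3-fold lower (adjusted p = 4.41e-05). In the Toll and Imd immunity list 8 of 22 were lower and 1 higher. The receptor Tl (Toll) was 2.15-fold lower (adjusted p = 3.88e-05) and SPE, the protease that activates its ligand, 5.22-fold lower (adjusted p = 0.000932).

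Several of the 20 largest rises and falls were in none of the groups above. gol (goliath), a RING-finger gene of mesoderm, read 12.36, 11.57 and 12.41 in slou_RFP cells against 10.37, 9.05 and 9.0 in twi_actin_GFP cells, 6.22-fold higher (adjusted p = 0.00101). JhI-21, an amino acid transporter, read 10.33, 9.68 and 10.34 in slou_RFP cells against 7.6, 7.32 and 7.6 in twi_actin_GFP cells, 6.1-fold higher (adjusted p = 5.72e-05). CCAP, which encodes a neuropeptide, read 7.33, 7.54 and 7.46 in slou_RFP cells against 4.97, 4.83 and 4.9 in twi_actin_GFP cells, 5.82-fold higher (adjusted p = 5.98e-06). No array of either group overlapped for these 3 genes, and CCAP was among the most even within groups. The uncharacterised gene CG31038 was 5.8-fold higher (adjusted p = 5.9e-05). Among the falls, Men, malic enzyme, read 6.91, 7.43 and 6.87 in slou_RFP cells against 11.93, 11.13 and 11.59 in twi_actin_GFP cells, 22.3-fold lower (adjusted p = 5.98e-06). fon (fondue), a gene of blood clotting, was dim in slou_RFP cells at 3.75, 3.92 and 3.99 and read 7.91, 7.99 and 9.06 in twi_actin_GFP cells, 21.6-fold lower (adjusted p = 1.51e-05). Itgbn, an integrin beta chain, was dim too and 26.8-fold lower (adjusted p = 4.3e-06).

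**Figure D5:**
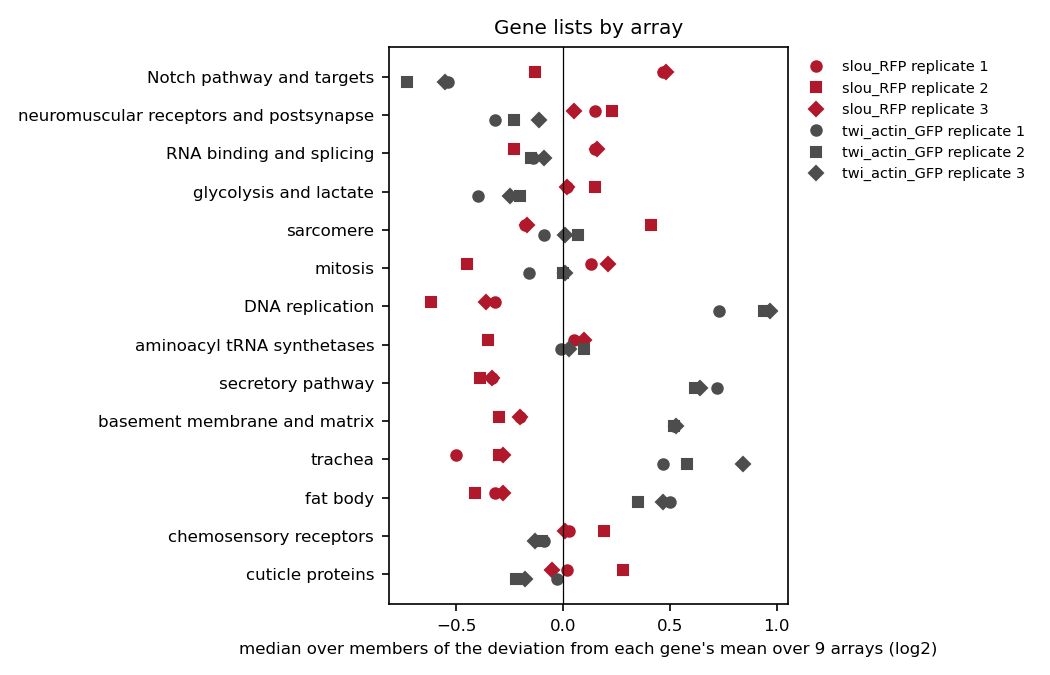
Median, over the members of each list, of the deviation from each gene's mean over 9 arrays (log2), with slou_RFP arrays in red and twi_actin_GFP arrays in grey. The groups are apart for secretory, replication, matrix, tracheal, fat body, Notch, neuromuscular and glycolysis genes, and also for the chemosensory receptors. For the sarcomere, mitosis, Notch and splicing lists slou_RFP replicate 2 lies away from replicates 1 and 3.

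The plot of list medians by array shows where slou_RFP replicate 2 mattered. Over the 10563 genes, 421 were more than 2-fold above and 726 more than 2-fold below the mean of replicates 1 and 3 in this array. Its median differences from the twi_actin_GFP mean were 0.59 over the higher genes and -1.12 over the lower genes. The same medians were 0.63 and -1.17 in replicate 1 and 0.65 and -1.08 in replicate 3. All 3 arrays entered the fit that called these genes, so the likeness of these medians is partly built in. It does not show that replicate 2 carried the differences as the other arrays did. For Notch genes the list median of replicate 2 was -0.13, against 0.47 and 0.48 in replicates 1 and 3. For mitosis genes it was -0.45, against 0.13 and 0.21. For DNA replication genes it was -0.62, against -0.32 and -0.36, so the replication list was lower in all 3 slou_RFP arrays.

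The slou_RFP and ap_GFP cells gave no call against each other: in limma 0 of 16377 probe sets passed, with a smallest adjusted p of 0.599, and 430 had an unadjusted p below 0.05. slou_RFP replicate 2 stood apart from its own group, and so did ap_GFP replicate 3, with 638 and 607 probe sets more than 2-fold from the other ap_GFP arrays. The ap_GFP cells were 74% pure on resorting. The absence of calls therefore does not show that both populations were alike. Both muscle reporters were set against the same 3 twi_actin_GFP arrays, so their differences share those controls and are given only side by side. RyR differed from twi_actin_GFP by 1.70 in slou_RFP and by 1.74 in ap_GFP on the log2 scale. Shal differed by -2.96 in slou_RFP and -2.85 in ap_GFP, Sec61alpha by -1.76 and -1.62, PCNA by -3.01 and -2.90, and Treh by 2.20 and 2.19.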

How the data were processed

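Total RNA of sorted cells was hybridized to Affymetrix arrays, 1 array per sort. RMA in Partek gave the log2 signals that were deposited, per the submitters' processing notes. Versions and settings are not given in the sources used here. RMA corrects background, normalizes between arrays and gives no detection call, so dim differences are compressed. The values were used as deposited.

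The platform annotation given for this work paired 11899 of 16377 probe sets with 1 gene, 353 with several and listed 4125 under none. RefSeq held the gene ID of 11806, with 0 symbols updated. Each of 10563 genes was represented by its brightest probe set, averaged across arrays. More than 1 probe set was available for 912 genes, and those of 13 genes were called in opposite directions.

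A limma 3.58.1 model (R 4.3.3, eBayes, no covariates) estimated the mean of each group from all 9 arrays, with Benjamini-Hochberg adjustment over all probe sets and a threshold of 0.05. The fit was tested on simulated data. ± values are standard errors of this fit. Differences are slou_RFP minus twi_actin_GFP, and a fold gives the higher group over the lower.

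The comparison, its 57 gene lists and the genes named were chosen with earlier results of these data known. Named were slou, ap and twi, the 20 largest rises and falls without overlap, and list members. Of a list every member was eligible where 12 or fewer were measured, otherwise up to 8 called members per direction and the 4 brightest uncalled. Genes outside this rule, chosen after their values were seen, were E(z), CycB3 and RpS26. Lists share members. Apart from the chromosome arm of each gene, positions and sequences were not used, and Mef2 and Sin3A were not analysed here. Replicate numbers paired nothing: deviations of same-numbered arrays correlated at 0.044, 0.004 and 0.087. Alternatives were 6 arrays only, quantile normalization, median centring, a filter on dim probe sets, array weights, another variance prior, the submitters' threshold (1.7-fold, unadjusted p below 0.05), the replicate block, each array left out, 2 divergent arrays left out together, the mean of a gene's probe sets, and, added after the values were seen, slou_RFP replicates 1 and 3 counted as 1.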

Additional observations from a re-analysis of the deposited data

How the results depend on the processing

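Against 1826 probe sets higher and 2120 lower, array weights gave 5830 higher and 3398 lower, the submitters' threshold 564 higher and 1559 lower, and the fit without slou_RFP replicate 2 and ap_GFP replicate 3 together 3383 higher and 2772 lower. Leaving out single arrays gave 901 to 2609 higher and 1552 to 2359 lower. Counting slou_RFP replicates 1 and 3 as 1, which was chosen after seeing the data, gave 1260 higher and 1818 lower, and 3031 of these 3078 calls were also made in the main comparison. The replicate block gave 1403 higher and 1917 lower, with numbers that did not pair the arrays. The other alternatives gave 1316 to 2265 higher and 1876 to 2087 lower. Of 430 called genes among the 646 eligible for naming, 248 kept their call in all 20 alternatives and 182 lost it in at least 1. Direction reversed with array weights for Mlc2 (-0.39), dlg1 (0.38) and Obp28a (-0.4), with the mean of all own probe sets for pum (-0.19), and for Obp28a as single arrays were left out (-0.47 without slou_RFP replicate 2, in a range of -0.47 to 0.41). Without slou_RFP replicate 2 and ap_GFP replicate 3 together it reversed for LManII (0.55), comm (-0.3), TwdlW (-0.62) and Obp28a (-0.47). Among these genes only pum (0.44) was called in the main comparison. The others were not called there, at 0.01 for Mlc2, -0.01 for dlg1, 0.11 for Obp28a, -0.55 for LManII, 0.24 for comm and 0.28 for TwdlW. The cause of the reversals was not tested. The number of arrays limits the precision, and dim genes have compressed differences.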

Other observations

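Genes of cell polarity and junctions, which organise epithelia, were lower in slou_RFP cells for 12 of 22 measured members and higher for 2, with a median of -0.69 on the log2 scale against 0.08 over all genes. The lower count was 7 without twi_actin_GFP replicate 3. The higher count was 0 without ap_GFP replicate 2, slou_RFP replicates 1 or 3 or any single twi_actin_GFP array, and 1 without ap_GFP replicate 1 or 3. It was also 0 with slou_RFP replicates 1 and 3 counted as 1. Of 7 tendon cell genes 1 was higher and 1 lower, and their median deviation was 0.56 in slou_RFP replicate 2, against -0.17 and -0.16 in replicates 1 and 3. Without slou_RFP replicate 2 the lower count was 3.

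On chromosome 4, 14 genes were called higher in slou_RFP cells, 9 lower and 38 were not called, whereas on each other chromosome arm more genes were lower than higher. The median difference of the chromosome 4 genes was 0.08 on the log2 scale, the same as over all genes. The counts thus go with no shift of its median. The difference between chromosomes was not tested.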
